A study of Mus musculus with 12 samples.

Results

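Interferon-stimulated genes are the genes that cells switch on when interferon is sensed, and 36 of them were followed here through 9 mouse mammary tumours and 3 preparations of mammary epithelium. They were chosen by name, by their known induction by interferon, and all 36 were found among the 54658 genes of the count files. The tumours (group 245-T) carried Trp53R245W/+, that is, 1 copy of the p53 gene with the missense change R245W, which arose somatically per the series' design text. The epithelium (group CTL) was enriched from the mammary glands of wild-type (WT) mice of the same cohort. All animals were female C57BL/6J X BALB/cJ F1 hybrids, and no agent, age or time is named in the labels. Gene counts cannot show the allele, so the genotype rests on the labels. The comparison asked how mammary tumours driven by mutant p53 differ from mammary epithelium. Tumours are named by the numbers in their labels, 1, 4, 5, 14, 17, 20, 21, 24 and 27, and values of the 9 tumours are printed in that order. Epithelium libraries are 1, 2 and 3.

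Interferons signal through receptors on the cell surface to the kinases JAK1, JAK2 and TYK2, which activate transcription factors of the cytoplasm. Type I interferons act mainly through a complex that holds STAT2 and IRF9 and binds the interferon-stimulated response element (ISRE), while interferon gamma acts mainly through the gamma-activated site (GAS). The products sense viral nucleic acids, block translation, tag proteins with the ubiquitin-like ISG15 and attack the vacuoles of intracellular pathogens. In breast tissue these genes are known to respond to signals from infiltrating immune cells and to nucleic acids that reach the cytoplasm of the tumour cells themselves.

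Promoter sequence of several of these genes is printed below because it carries the element through which many of them are known to be induced. RefSeq promoter windows on GRCm38.p6, 250 bases before to 50 bases after each start, were at hand for 26 of the 36 genes. The ISRE core, searched on both strands as GAAA, any 2 bases and GAAA, was present in 17 of the 26 genes (65.4%), against 1079 of all 27025 genes with a window (3.99%). The GAS core TTCNNNGAA, also searched on both strands, was present in 6 of 26 (23.1%), against 9.55% of all genes. Matches of both motifs can overlap, and a match is a description of letters rather than a tested binding site. The stretches run 5′ to 3′ along the strand of the gene, all lie before the start site, and capitals mark the ISRE core, which reads as its reverse complement (TTTC, any 2 bases, TTTC) in Ifit1, Ifit3, Ifit3b and Gbp2.
Isg15, chr4:156200855-156200916, minus strand: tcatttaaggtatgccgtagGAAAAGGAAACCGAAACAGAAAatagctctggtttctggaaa
Ifit1, chr19:34640765-34640833, plus strand: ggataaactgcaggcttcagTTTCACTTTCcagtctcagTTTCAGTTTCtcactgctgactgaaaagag
Ifit3, chr19:34583353-34583436, plus strand: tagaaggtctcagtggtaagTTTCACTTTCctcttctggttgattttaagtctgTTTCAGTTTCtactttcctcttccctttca
Ifit3b, chr19:34607749-34607832, plus strand: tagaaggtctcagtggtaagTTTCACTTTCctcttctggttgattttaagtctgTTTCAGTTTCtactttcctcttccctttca
Oas3, chr5:120777705-120777754, minus strand: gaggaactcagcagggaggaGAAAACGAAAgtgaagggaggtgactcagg
Gbp2, chr3:142620584-142620633, plus strand: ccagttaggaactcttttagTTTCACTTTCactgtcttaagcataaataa

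In Isg15, 3 matches that share bases stand side by side, and the stretches of Ifit3 and Ifit3b, neighbouring copies of one gene, are identical. By role, the ISRE core was present in 1 of 4 regulators, 3 of 3 sensors, 7 of 11 effectors, 2 of 4 OAS and MX genes and 4 of 4 GTPases with a window. Among the regulators, the window of Irf1 held a GAS core and no ISRE core.

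The depth and quality of the libraries bear on all values below. The tumours had 19695318 to 33600076 reads counted in genes, against 24247566 to 25543872 in epithelium. Values are counts per 1000000 (CPM) after scaling by the trimmed mean of M values, and a count of 3, the limit that a count of 0 allows, corresponded to 0.0986 to 0.273 CPM in tumours and 0.101 to 0.104 CPM in epithelium. Tumour 4 stood apart: 52.0% of its alignments were not unique, against a median of 21.5% over the 9 tumours and at most 12% in epithelium, and 22.6% of its gene counts fell on the small nuclear RNA gene Rn7sk. It was also 1 of the 2 tumours in which interferon-stimulated genes were highest, so results that rest on it are given with and without it. Titles of tumour libraries start with R597 and those of epithelium with R688, so if the prefix marks a batch, that batch and the group cannot be told apart. Nor do the labels say whether each tumour came from a separate mouse, so p-values measure only the spread between these libraries.

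The epithelium libraries held far more lymphocyte RNA than the tumours. All 13 T and NK cell markers fell in tumours (edgeR quasi-likelihood test, Benjamini-Hochberg adjusted p under 0.05; 11.4% of all genes tested were lower and 8.89% higher), with a summed level of 4.32 to 43.0 CPM in tumours and 573 to 663 CPM in epithelium. Of 10 dendritic cell markers 9 fell, among them Siglech, a marker of the plasmacytoid cells that make type I interferon, which had 0.365 to 5.87 CPM in tumours and 33.5, 39.9 and 54.0 CPM in epithelium. Ptprc (CD45), carried by all leukocytes, had 36.8 to 295 CPM in tumours and 1099 to 1302 CPM in epithelium. Of 11 macrophage and monocyte markers 4 rose, C1qa, C1qb, C1qc and Fcgr1, and none was called lower in this fit. In 1 of the 11, however, every tumour lay below every epithelium library, as in 14.1% of all genes. DESeq2, limma-voom and edgeR without tumour 4 each called 1 lower, against 12.4%, 15.7% and 12.5% of all genes. Of 10 epithelial markers 3 rose, Epcam, Cdh1 and Cldn3. Fewer cells of a type and less RNA per cell cannot be told apart in bulk tissue, and the part of this difference in the results below was not tested.

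The 36 genes were high in some tumours and low in others, while epithelium lay between. The score of a library, the mean log2 CPM of the 36 genes with a prior count of 2, was 6.64 in tumour 4, 6.41 in tumour 5 and 5.54 in tumour 27. It was 4.53 in tumour 21, 4.51 in tumour 14 and 4.31 in tumour 17, and then 3.44 in tumour 1, 3.15 in tumour 20 and 2.87 in tumour 24. Epithelium scored 4.55, 4.34 and 4.72 in libraries 1, 2 and 3. Tumours 4, 5 and 27 thus lay above every epithelium library and tumours 17, 1, 20 and 24 below every one, while tumours 21 and 14 lay within the range of epithelium. The score averaged 4.60 ± 1.36 in tumours (SD, n = 9) and 4.54 ± 0.19 in epithelium (SD, n = 3), and its range was 3.77 log2 units over tumours and 0.39 over epithelium.

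**Figure D1:**
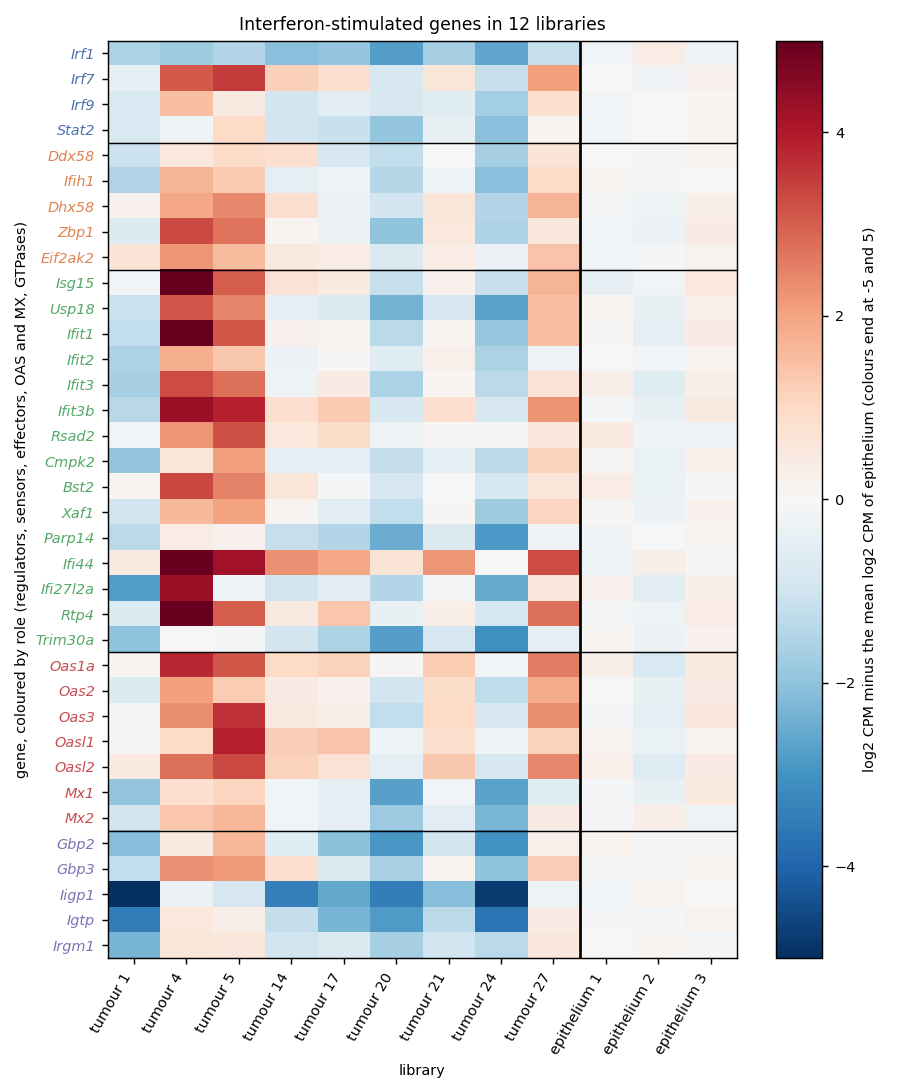
Heat map of the 36 genes (rows, grouped by role) in 9 tumours and 3 epithelium libraries (columns). Colour gives log2 CPM minus the mean log2 CPM of epithelium and ends at -5 and 5; tumours 4, 5 and 27 are above epithelium in 32, 32 and 30 genes, and tumours 20 and 24 are below it in 32 genes each.

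Gene by gene the tumours split in the same way. In tumour 4, 32 of the 36 genes were above every epithelium library and 3 below, where 38.3% of all genes tested were above and 51.7% below. Tumour 5 had 32 above and 2 below, against 43.8% and 43.6% of all genes. In tumour 27 there were 30 above and 6 below, against 45.4% and 41.0% of all genes. These 3 tumours thus had most of the group above epithelium. In tumour 24 none of the 36 was above and 32 were below, against 42.9% and 46.5% of all genes. Tumour 20 had 1 above and 32 below, against 41.4% and 45.7%, and tumour 1 had 3 above and 26 below, against 41.7% and 46.8%. Most of the group was thus below epithelium there. The remaining tumours were mixed: tumour 14 had 14 above and 14 below (43.2% and 44.4% of all genes), tumour 17 had 10 and 19 (43.3% and 44.8%) and tumour 21 had 13 and 13 (42.7% and 41.4%). Tumour 4 was the highest tumour for 21 genes, tumour 5 for 13, and tumour 27 for Irf1 and Iigp1. At the other end, tumour 24 was the lowest for 23 genes, tumour 1 for 7 and tumour 20 for 6.

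The comparison of all tumours with all epithelium called 1 of the 36 genes. Irf1 fell, and none rose (edgeR quasi-likelihood test over 21456 genes, adjusted p under 0.05), against 11.4% of all genes lower and 8.89% higher. At an unadjusted p under 0.05 there were 3 genes, Irf1, Ifi44 and Oas1a, or 8.33% of the 36, against 36% of all genes tested. The log2 fold change was positive in 27 of the 36 (75.0%), against 56.4% of all genes (edgeR), and its median was 0.89, against 0.17 over all genes. Without tumour 4 the median of the 36 genes was 0.45, and with limma-voom it was 0.04, against -0.024 over all genes. All 36 passed the filter on low counts. In no gene of the 36 was every tumour above every epithelium library, and in Irf1 and Iigp1 every tumour was below, where 10.2% and 14.1% of all genes did not overlap in those directions. DESeq2 called 3 genes higher, Ifi44 (adjusted p = 0.00385), Rtp4 (adjusted p = 0.0452) and Oas1a (adjusted p = 0.0488), against 13.1% of the genes it tested, and Irf1 lower (12.4% of its genes). It replaced the count of tumour 4 as an outlier in 4 other genes, Isg15, Ifit1, Bst2 and Ifi27l2a.

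**Figure D2:**
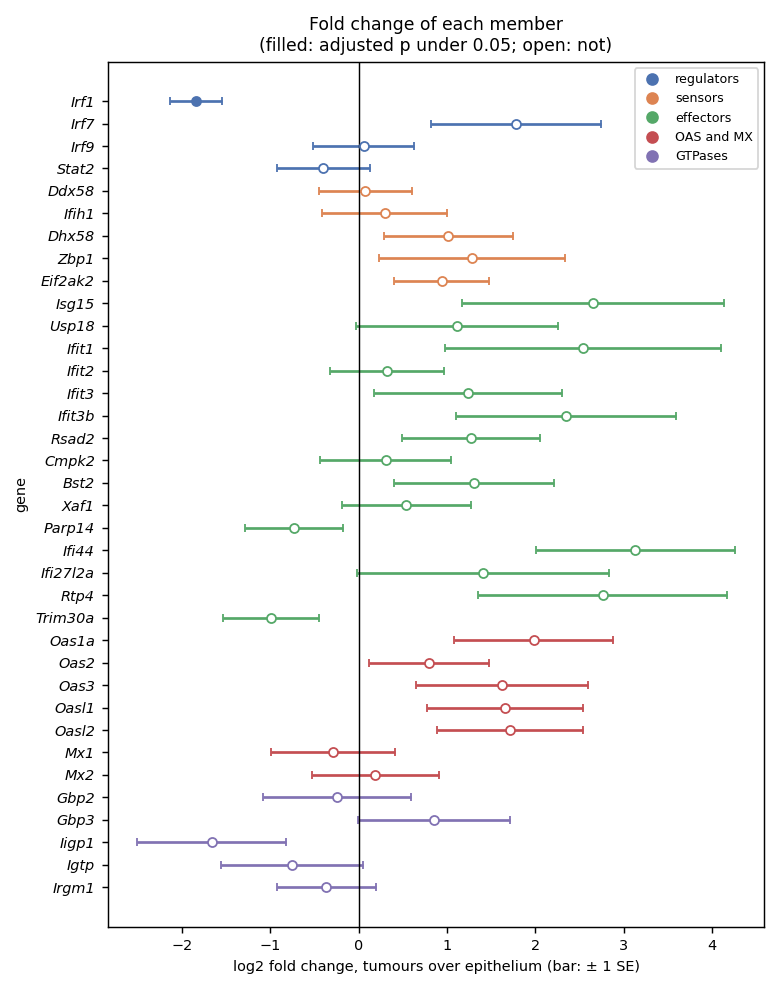
Log2 fold change of the 36 genes, tumours over epithelium, from the edgeR fit (points) with the standard error (bars), grouped by role. Irf1, at -1.84 (SE 0.29), is the gene that passed the test, and the bars of the others are wider, up to an SE of 1.56 for Ifit1.

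The 4 regulators are transcription factors that carry or amplify the interferon signal. Irf1 (chr11:53770014-53778374), an early target of interferon gamma, had 76.3, 68.1, 83.6, 54.5, 60.5, 34.1, 72.6, 37.7 and 104 CPM in tumours and 208, 300 and 196 CPM in epithelium. Every tumour lay below every epithelium library, and tumour 27 was the highest tumour. The log2 fold change was -1.84 (SE 0.29, edgeR adjusted p = 0.00092). Of the 36 genes Irf1 had the highest level per length in epithelium, 59.0 CPM per kb of exon, against 16.5 in tumours.

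Irf7 (chr7:141262706-141266481), which amplifies type I interferon production, behaved otherwise. It had 21.9, 250, 335, 67.5, 53.3, 17.3, 45.2, 13.6 and 122 CPM in tumours and 29.2, 26.3 and 34.6 CPM in epithelium. Tumours 1, 20 and 24 were below all epithelium and the other 6 tumours above it, and the difference did not pass the test (log2 fold change 1.78, SE 0.96, edgeR adjusted p = 0.201). Irf9 (chr14:55603571-55610030), the DNA-binding partner of STAT2, had 43.2, 211, 101, 37.8, 50.8, 42.6, 48.2, 22.8 and 133 CPM in tumours and 67.6, 74.1 and 79.7 CPM in epithelium. Tumours 4, 5 and 27 were above all epithelium and the other 6 below it. The log2 fold change was 0.06 (SE 0.57, edgeR adjusted p = 0.953), and its sign turned under upper quartile scaling (-0.043). Stat2 was lowest in tumour 24, at 15.1 CPM, and highest in tumour 5, at 129 CPM, with a median of 38.1, against 57.8 to 69.3 CPM in epithelium. Irf9 shares part of its locus with Rnf31 on the same strand, and Irf1 and Irf7 overlap genes on the other strand, so the strand setting of the counting, not given in the sources used here, bears on these values.

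The 5 sensors detect viral nucleic acids. Ddx58 (chr4:40203773-40239828), which encodes the RNA sensor RIG-I, had 51.4, 159, 213, 194, 61.2, 46.2, 109, 34.8 and 172 CPM in tumours and 108, 106 and 116 CPM in epithelium. Tumours 4, 5, 14 and 27 lay above epithelium, tumours 1, 17, 20 and 24 below it and tumour 21 within its range. The log2 fold change was 0.08 (SE 0.53, edgeR adjusted p = 0.931), with the opposite sign under upper quartile scaling (-0.023). Eif2ak2 (chr17:78852564-78882573), the kinase PKR that halts translation when it binds double-stranded RNA, had 82.1, 233, 150, 72, 65.4, 30.9, 66.4, 41.6 and 138 CPM in tumours and 46.8, 48.2 and 58.1 CPM in epithelium. Here 7 tumours were above all epithelium, all but tumours 20 and 24 (log2 fold change 0.94, SE 0.54, edgeR adjusted p = 0.225). The other 3 sensors spread further. Zbp1, a sensor of Z-form nucleic acids that can trigger cell death, had 4.20 CPM in tumour 20, its lowest, and 167 CPM in tumour 4, its highest, a range of 39.8-fold, against 13.9 to 22.8 CPM in epithelium. Ifih1 (MDA5) ran from 16 to 219 CPM in tumours, against 63.4 to 71.3 in epithelium, and Dhx58 (LGP2) from 4.07 to 58.4, against 9.45 to 13.7.

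The 15 effectors include the IFIT proteins, which bind viral RNA, and the ISG15 system. They held the widest ranges over tumours. Isg15 (chr4:156199424-156200818), the ubiquitin-like modifier, had 3.72, 168, 33.0, 6.64, 5.59, 1.84, 4.68, 1.80 and 13.2 CPM in tumours and 3.08, 3.65 and 5.91 CPM in epithelium. Tumour 4 was 93.0-fold above tumour 24, and epithelium lay among the low tumours. The log2 fold change was 2.65 (SE 1.48, edgeR adjusted p = 0.215) and 1.05 without tumour 4. Ifit1 (chr19:34640871-34650009) had 5.18, 463, 104, 14.2, 13.8, 4.71, 13.1, 3.26 and 34.4 CPM in tumours and 12.8, 8.65 and 16.1 CPM in epithelium. Its range, 142-fold between tumours 4 and 24, was the widest of the 36 genes, and its log2 fold change was 2.54 (SE 1.56, edgeR adjusted p = 0.256) with tumour 4 and 0.93 without it.

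Ifi27l2a (chr12:103442167-103443680), a small protein of membranes, had 3.65, 494, 22.4, 12.8, 17.1, 9.20, 23.9, 4.38 and 37.3 CPM in tumours and 29.1, 17.4 and 31.8 CPM in epithelium. The value of tumour 4 alone set its direction: the log2 fold change was 1.41 (SE 1.42, edgeR adjusted p = 0.501) with tumour 4 and -0.68 without it. Rtp4 (chr16:23520291-23614222), named for a role in bringing receptors to the cell surface, had 7.11, 464, 94.6, 15.6, 30.6, 8.83, 14.5, 6.33 and 77.8 CPM in tumours and 10.7, 9.59 and 15.1 CPM in epithelium. Tumours 4, 5 and 27 were again far above the others, at a log2 fold change of 2.76 (SE 1.41, edgeR adjusted p = 0.177) and of 1.42 without tumour 4. Parp14 (chr16:35832874-35871544), an ADP-ribosyltransferase, had 72.2, 239, 213, 83.4, 67.6, 33.1, 111, 25.0 and 162 CPM in tumours and 165, 187 and 203 CPM in epithelium. Tumours 4 and 5 lay above epithelium and the other 7 below it, with no call (log2 fold change -0.73, SE 0.56, edgeR adjusted p = 0.363). Rtp4 and Parp14 overlap predicted genes on the same strand, so their counts are uncertain in the same way.

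Ifi44, a protein of the cytoplasm induced by type I interferon, was picked out after its values were seen, as the gene of the 36 with the largest fold change. It had 11.5, 287, 154, 40.3, 32.0, 13.1, 38.7, 8.29 and 78.9 CPM in tumours and 7.23, 10.1 and 7.90 CPM in epithelium. All tumours but tumour 24 were above all epithelium, and at a log2 fold change of 3.13 (SE 1.12) the edgeR adjusted p was 0.0653. The edgeR adjusted p was 0.0472 without tumour 1, 0.0468 without tumour 24 and 0.0527 to 0.0871 without any other tumour. Without epithelium library 1, 2 or 3 it was 0.201, 0.171 or 0.197. The adjusted p was 0.149 with limma-voom and 0.00385 with DESeq2. The other 9 effectors ranged 8.19-fold (Trim30a) to 56.4-fold (Usp18) over tumours, and none was called. Usp18, which removes ISG15 from proteins and dampens the receptor, had 2.30 CPM in tumour 24 and 130 in tumour 4, against 11.4 to 17.8 in epithelium. Ifit3 and Ifit3b, whose printed promoter stretches are the same, ran from 3.65 to 111 CPM and from 0.863 to 45.3 CPM in tumours. Reads of such copies can be split between them by counting, so both values are uncertain.

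**Figure D3:**
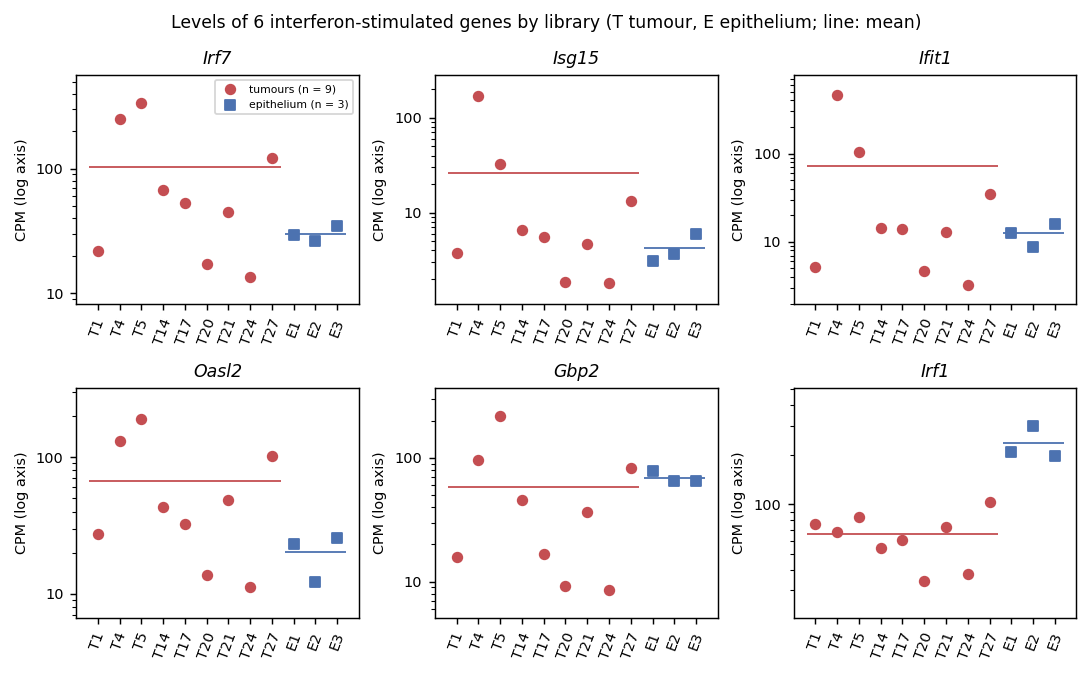
CPM on a log axis of Irf7, Isg15, Ifit1, Oasl2, Gbp2 and Irf1 in each of 9 tumours (circles) and 3 epithelium libraries (squares), with lines at the group means. Tumours 4, 5 and 27 are the 3 highest in the first 5 genes, while in Irf1 all 9 tumours lie below all 3 epithelium libraries.

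The 7 OAS and MX genes belong to the families of the enzymes that activate the RNA-cutting RNase L and of dynamin-like antiviral GTPases. Oasl2 (chr5:114896936-114912234) had 27.4, 131, 189, 43.1, 32.3, 13.8, 48.9, 11.2 and 101 CPM in tumours and 23.1, 12.3 and 25.5 CPM in epithelium. No tumour but 24 lay below epithelium, and 7 tumours lay above all of it (log2 fold change 1.71, SE 0.83, edgeR adjusted p = 0.155). Oas1a (chr5:120896256-120907521) had 6.61, 84.3, 53.5, 12.2, 13.8, 6.40, 14.9, 5.64 and 36.8 CPM in tumours and 7.51, 3.68 and 8.54 CPM in epithelium. Tumours 1, 20 and 24 overlapped epithelium and the other 6 were above it (log2 fold change 1.98, SE 0.90, edgeR adjusted p = 0.133), and reads can be split with near-identical family members such as Oas1g. Oasl1 stood out by tumour: it had 81.3 CPM in tumour 5 but 10.8 CPM in tumour 4, less than in tumours 14, 17 and 27, against 4.27 to 6.19 CPM in epithelium. Mx1 and Mx2 ran from 2.61 to 35.9 CPM and from 1.80 to 27.6 CPM in tumours, against 13.2 to 24.2 CPM and 7.36 to 11.1 CPM in epithelium. Mx2 is annotated as a polymorphic pseudogene in GENCODE M21, unlike the other 35 genes, which are protein-coding.

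The 5 GTPases of the GBP and IRG families attack pathogen vacuoles and are known as targets of interferon gamma. Gbp2 (chr3:142620602-142638008) had 15.7, 96.5, 217, 45.4, 16.8, 9.20, 36.4, 8.52 and 82.3 CPM in tumours and 79.0, 64.8 and 64.6 CPM in epithelium. Tumours 4, 5 and 27 lay above epithelium and the other 6 below (log2 fold change -0.24, SE 0.84, edgeR adjusted p = 0.858). Gbp3 (chr3:142560026-142573209) had 16.1, 187, 168, 69.8, 23.8, 12.4, 42.4, 9.37 and 88.4 CPM in tumours and 35.9, 36.4 and 42.0 CPM in epithelium. Here tumours 14 and 21 joined the 3 high ones (log2 fold change 0.85, SE 0.86, edgeR adjusted p = 0.503). Iigp1, picked out after its values were seen because its groups did not overlap, had 4.18, 128, 88.1, 14.6, 26.5, 14.2, 36.2, 5.64 and 132 CPM in tumours and 141, 179 and 154 CPM in epithelium. Tumours 27 and 4 came close to epithelium, and the others were far below it. The log2 fold change was -1.66 (SE 0.84, edgeR adjusted p = 0.172), and limma-voom gave an adjusted p of 0.0402, calling 2 of the 36 genes lower and none higher, against 15.7% and 8.04% of all genes. Without tumour 4, edgeR still called Irf1 alone, lower, where 12.5% of all genes were lower and 11.6% higher. The GBP genes are a family of similar sequence, and Igtp overlaps Irgm2 on its strand, so their counts are uncertain.

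By role, the score of tumours minus that of epithelium was -1.13 log2 units for the GBP and IRG GTPases, -0.47 for regulators, 0.22 for sensors, 0.32 for effectors and 0.56 for OAS and MX genes. The first of these scores was 4.79 ± 1.5 in tumours and 5.92 ± 0.02 in epithelium, and that of OAS and MX genes was 3.79 ± 1.29 in tumours and 3.23 ± 0.35 in epithelium (SD, n = 9 and 3). Within tumours the SD exceeded the difference in every role, and whether the roles differ from each other was not tested. Tumours 4, 5 and 27 were the 3 highest, and tumours 1, 20 and 24 the 3 lowest, in each of the 5 roles.

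The genes moved together over the 9 tumours. The median Spearman rho over the 630 pairs of the 36 genes was 0.867, from 0.35 to 1, with no negative pair, whereas the median over all pairs of genes tested was 0 and their 95th percentile 0.617. These are correlations over 9 libraries that share depth and RNA quality, given as a description. Pairs on different chromosomes had a median of 0.867 and pairs on the same chromosome 0.883. Without tumour 4 the median was 0.857, and without tumours 4 and 5, a choice made after seeing the data, it was 0.786 over 7 tumours, where the median over all pairs of genes was still 0. Isg15, Usp18 and Ifit1 had the same order of tumours (rho 1), as did Irf7 and Mx2, and Xaf1 and Gbp2.

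**Figure D4:**
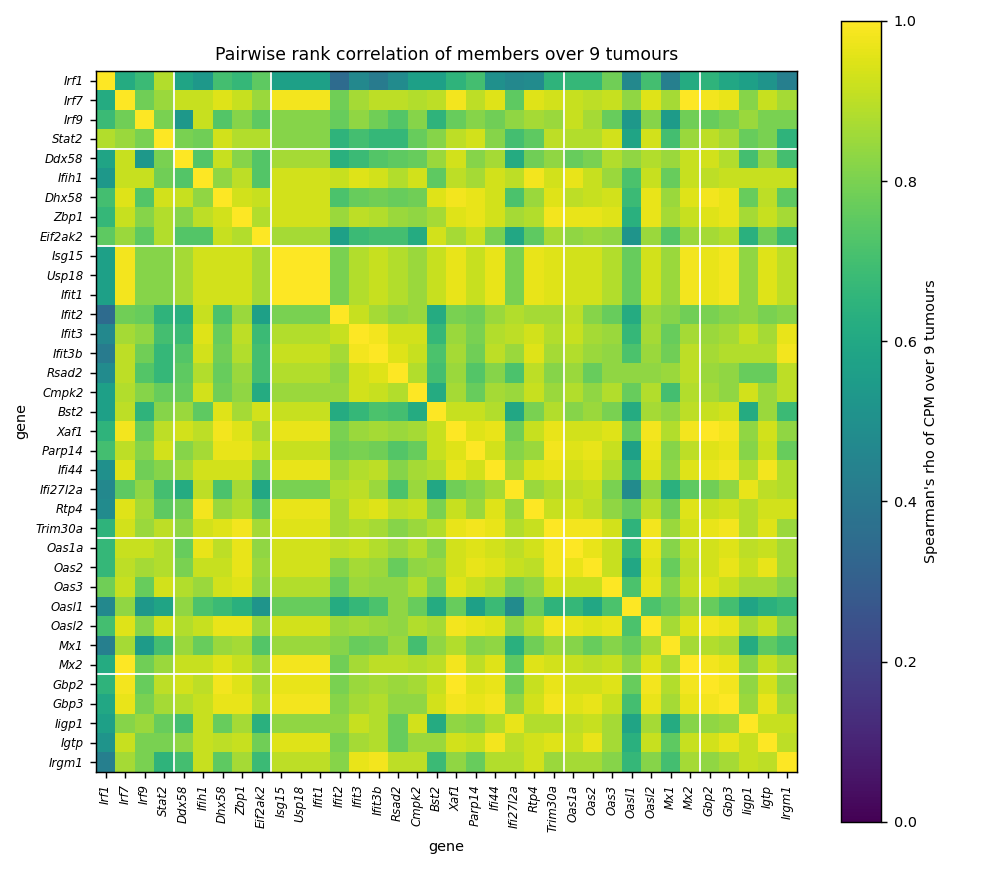
Spearman rho over 9 tumours for every pair of the 36 genes, grouped by role, from 0 to 1 in colour. The median is 0.867, no pair is negative, and Irf1 and Oasl1 form the darkest stripes (low rho), with medians of 0.567 and 0.683.

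Irf1 followed the others least. Its median rho with the other 35 genes was 0.567, the lowest of the 36, followed by 0.683 for Oasl1 and 0.80 for Ifit2 and Irf9. Its range over tumours, 3.04-fold, was also the narrowest, and Ddx58 came next with 6.12-fold. By contrast the median SD of log2 CPM over tumours was 1.39 for the 36 genes, against 0.757 for all genes tested. Within epithelium the medians were 0.292 and 0.177.

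Relations between single genes were tested over the 9 tumours by exact two-sided permutation over all 362880 pairings, with Benjamini-Hochberg adjustment over 11 relations, of which 10 are given. Irf7 rose and fell with Isg15 (Pearson's r of log2 CPM 0.913, permutation p = 0.000176, adjusted p = 0.00097; Spearman's rho 0.983, p = 4.96e-05). It did so with Gbp2 (r 0.963, permutation p = 4.41e-05, adjusted p = 0.000485; rho 0.983, p = 4.96e-05) and with Oas2 (r 0.912, permutation p = 0.00133, adjusted p = 0.00418; rho 0.90, p = 0.00203). Without tumours 4 and 5, which were farthest from the median of Irf7, r was 0.974 for Isg15, 0.932 for Gbp2 and 0.951 for Oas2. These 3 pairs therefore do not rest on the 2 highest tumours. They belong to a group chosen with earlier results known, so they are no independent support for its co-movement.

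The other 7 relations given did not pass the adjustment. Irf7 and Irf1 gave r 0.675 (permutation p = 0.0461, adjusted p = 0.0846; rho 0.617, p = 0.0857), and r 0.746 without tumours 4 and 5. Irf7 had r 0.598 with the leukocyte gene Ptprc (permutation p = 0.0904, adjusted p = 0.11; rho 0.383, p = 0.313), r 0.224 with the macrophage gene Adgre1 (permutation p = 0.553, adjusted p = 0.553; rho 0.317, p = 0.41) and r 0.497 with the epithelial gene Epcam (permutation p = 0.171, adjusted p = 0.188; rho 0.55, p = 0.133). Without tumours 4 and 5 these 3 values of r were 0.523, 0.182 and 0.0392. Irf1 had r 0.737 with Gbp2 (permutation p = 0.0238, adjusted p = 0.0523; rho 0.65, p = 0.0666), 0.601 with Ptprc (permutation p = 0.0837, adjusted p = 0.11; rho 0.30, p = 0.437) and 0.616 with Cd3e of T cells (permutation p = 0.0776, adjusted p = 0.11; rho 0.433, p = 0.25). Without tumours 20 and 24, the farthest in Irf1, those were 0.422, -0.318 and -0.0189. A permutation p that misses the threshold with 9 tumours does not show that the genes are unrelated.

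**Figure D5:**
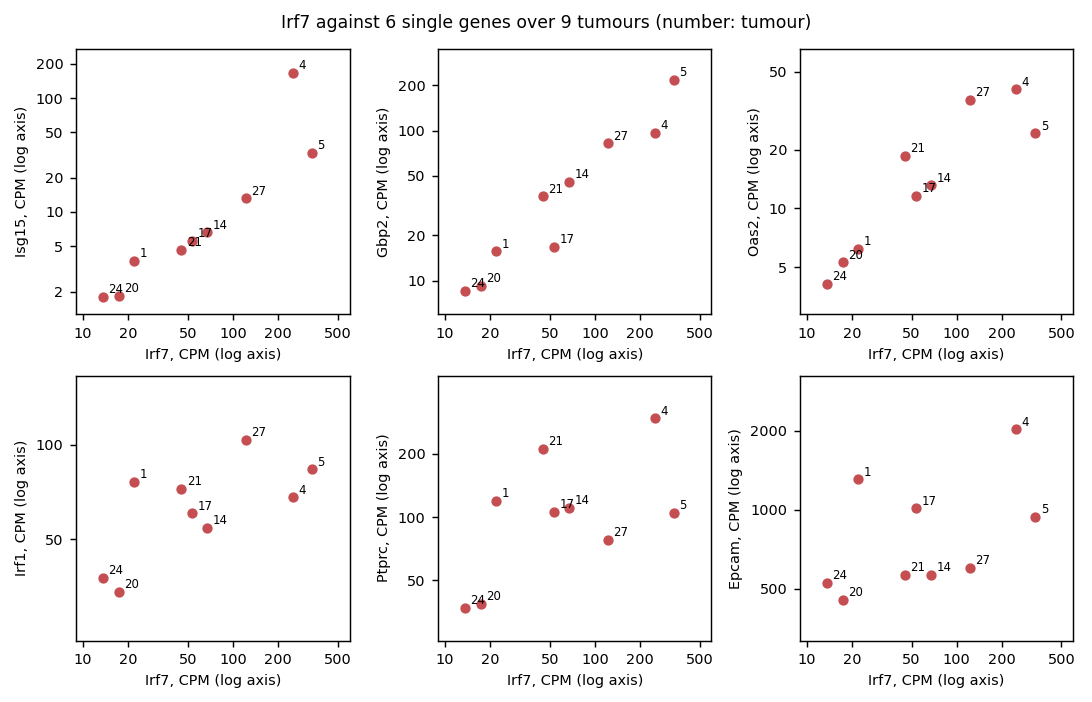
CPM of Irf7 (x, log axis) against CPM of Isg15, Gbp2, Oas2, Irf1, Ptprc and Epcam (y, log axes) in 9 tumours, each point labelled with its tumour number. Isg15, Gbp2 and Oas2 climb with Irf7 (r 0.913, 0.963 and 0.912), and the relations with Irf1, Ptprc and Epcam did not pass the adjusted test.

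Marker levels of several cell types by tumour are given here beside that order. Of the 3 tumours with the highest scores, tumour 4 had the most Ptprc, 295 CPM, but tumour 5 had 104 and tumour 27 had 78.1, less than the 212 CPM of tumour 21, 119 of tumour 1 and 111 of tumour 14. Tumours 20 and 24, with the lowest scores, also had the least Ptprc, 38.5 and 36.8 CPM. The summed T and NK cell markers were 43.0, 8.54 and 36.6 CPM in tumours 4, 5 and 27, and 4.32, 15.0 and 7.10 CPM in tumours 1, 20 and 24, with Gzma and Klrb1c at 0 in tumour 1, Klrb1c in tumour 20 and Cd3e and Klrb1c in tumour 24. The summed macrophage and monocyte markers were 3580, 1731 and 773 CPM in tumours 4, 5 and 27, and 1834, 612 and 910 CPM in tumours 1, 20 and 24. In the same order of tumours, the summed epithelial markers were 4275, 6068 and 7047 CPM, and 6918, 1503 and 2188 CPM. Summed neutrophil markers were 285, 172 and 15.0 CPM, and 116, 19.8 and 14.7 CPM. The part of these cell types in the order of tumours was not tested beyond the single genes above.

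Genes upstream of the response were followed through a list of 47 ligands, receptors, kinases, sensors and inhibitors, of which 36 passed the filter on low counts. None rose and 10 fell (edgeR, adjusted p under 0.05; 18 of the 36 had an unadjusted p under 0.05 in either direction, and DESeq2 called 1 higher), with a median log2 fold change of -0.52. Over all genes tested, edgeR called 8.89% higher and 11.4% lower, and 36% had an unadjusted p under 0.05. DESeq2 called 13.1% of its genes higher. The number lower was 4 without any 1 of the epithelium libraries, and 7 to 12 without any 1 tumour. Over all genes the number lower was 2438 with all libraries and 1496 to 1542 without any 1 epithelium library. Among ligands, Ifng, made by T and NK cells, had 0 to 0.0847 CPM in tumours, under the level of 3 counts, and 0.346, 1.01 and 0.405 CPM in epithelium (edgeR adjusted p = 0.0027). The T and NK cell markers named above fell between the same groups. Over tumours Ifng was too low for its order to be read, and it was 0 in tumour 4, where the summed markers were highest. Its relation to those markers was not tested. Ifnb1, interferon beta, was at 0 in 5 tumours and reached 0.456 CPM in tumour 4 and 0.14 CPM in tumour 5, against 0.104, 0 and 0.0675 CPM in epithelium. Of the tumours, 4 and 5 thus had the most Ifnb1 as well as the highest scores, from few reads.

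The receptors were expressed in every library. Ifnar1 and Ifnar2, the chains of the type I receptor, had 71.9 to 124 and 21.4 to 55.3 CPM in tumours and 116 to 122 and 35.6 to 40.6 CPM in epithelium, with no call (edgeR adjusted p = 0.417 and 0.943). Of the interferon gamma receptor, Ifngr1 fell (64.6 ± 24.6 CPM in tumours and 134 ± 21.5 CPM in epithelium, log2 fold change -1.05, SE 0.33, edgeR adjusted p = 0.0398). Its edgeR adjusted p reached 0.177 when 1 library was left out. Ifngr2 had 49.8 to 401 CPM in tumours, 8 of them above all epithelium, and 44.7 to 51.0 CPM in epithelium. It was not called by edgeR (adjusted p = 0.17, and 0.0519 without tumour 4), but DESeq2 called it higher (adjusted p = 0.0234). Jak1, the kinase shared by both receptors, fell to 167 ± 44.8 CPM in tumours, against 520 ± 19.8 CPM in epithelium (log2 fold change -1.64, SE 0.24, edgeR adjusted p = 0.000488), with every tumour below every epithelium library. Jak2 fell too (log2 fold change -1.06, SE 0.30, edgeR adjusted p = 0.0262), and Tyk2 did not pass (log2 fold change -0.35, SE 0.34, edgeR adjusted p = 0.485). When 1 library was left out, the edgeR adjusted p reached 0.118 for Jak2 and 0.00416 for Jak1. Ptpn6, a phosphatase of blood cells that dampens JAK signalling, fell as well (log2 fold change -1.47, SE 0.23, edgeR adjusted p = 0.000696). So did Irf8, a transcription factor of myeloid and B cells (log2 fold change -1.77, SE 0.37, edgeR adjusted p = 0.00483). The leukocyte gene Ptprc was also lower in tumours, and its relation to Ptpn6 and Irf8 was not tested.

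A second list of 52 interferon-induced genes outside the 36 had 2 higher and 13 lower in tumours (edgeR, adjusted p under 0.05). Over all genes tested 8.89% were higher and 11.4% lower. The median log2 fold change of the list was -0.18, against 0.17 over all genes. The number lower was 5 or 6 without any 1 epithelium library and up to 15 without a tumour. Here too the number lower over all genes was smaller without an epithelium library, 1496 to 1542 against 2438. Gbp4, a further guanylate-binding GTPase, fell most, to 12.9 ± 7.01 CPM in tumours, against 133 ± 12.4 CPM in epithelium (log2 fold change -3.36, SE 0.47, edgeR adjusted p = 0.000384). Sp100, a component of nuclear bodies, Gbp9, the GTPase Tgtp2 and Shisa5, a membrane protein of cell death pathways, fell with log2 fold changes of -2.20, -2.15, -2.39 and -1.56 (SE 0.48, 0.49, 0.54 and 0.36, edgeR adjusted p = 0.00673, 0.00817, 0.00838 and 0.00914). Lap3, an aminopeptidase, rose (174 ± 85.7 CPM in tumours and 40.1 ± 0.72 CPM in epithelium, log2 fold change 2.12, SE 0.43, edgeR adjusted p = 0.00447). Over tumours the median pairwise rho of this list was 0.617, from -0.82 to 1, and 0.75 between its genes and the 36.

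Outside the 36 genes, those whose log2 CPM followed the score most closely over the 9 tumours were Oas1g (r 0.983), Apol9b (0.977), B2m (0.975), Herc6 (0.972), Apol9a (0.970), Mtm1 (0.964), H2-T10 (0.964), Dtx3l (0.961), Ifi47 (0.957) and Parp9 (0.956), among 12489 genes with at least 5 CPM. Oas1g, Herc6, Dtx3l, Ifi47 and Parp9 belong to the second list. B2m, the light chain of MHC class I, had 3205, 3853 and 3040 CPM in tumours 4, 5 and 27 and 342 to 894 CPM in the other 6, against 937 to 1096 CPM in epithelium. These 10 were ranked by this measure, so r is a description without a test.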

How the data were processed

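The authors extracted total RNA with a column kit and made stranded TruSeq libraries, per the labels' protocols. The deposited files hold raw counts per gene, unnormalized whole numbers, with 5 summary lines that name no gene and were left out. The submitters' processing notes name TopHat2 2.1.1 and HTSeq 0.11.0, as well as FastQC 0.11.8, and the genome build GRCm38. Neither the annotation release nor the strand setting is given in the sources used here. Positions, overlaps and exonic lengths came from GENCODE M21 on GRCm38, and all 217 listed genes matched.

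Counts were fitted in R 4.3.3 with edgeR 4.0.16 (filterByExpr, trimmed mean of M values, robust quasi-likelihood F test, group only), and p-values were Benjamini-Hochberg adjusted over the 21456 genes tested. Means and SD are over CPM without a prior count. Scores, correlations and spread used log2 CPM with a prior count of 2. DESeq2 1.42.0, limma-voom (limma 3.58.1), other scalings and filters, and leaving out each library were alternatives. The fit was tested on simulated counts. Python 3.11.15 and scipy 1.17.1 ran the permutations. No library was a copy of another: chi-square per degree of freedom was at least 217 between tumours and 24.1 between epithelium libraries.

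Members and lists were chosen with earlier results of these data known. Per-library values are given for the 2 genes of each role with the highest mean over tumours, every called gene and the 4 genes with the widest range; upstream and second-list genes were the called ones, up to 6 each by adjusted p, and fixed receptors, kinases and ligands, 1 fixed gene not being reported here; other non-members named are the 10 closest to the score. Cgas is listed in the files under that symbol rather than the older one of the list.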

Additional observations from a re-analysis of the deposited data

Results flagged for a closer look

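In 10 of the 36 genes a single tumour lay far above the other 8 in CPM, taken without logs. Its gap to the nearest exceeded Dixon's 95% critical ratio for 9 values. Chance alone passes that ratio in about 1 in 20 groups of normally distributed values. That rate does not hold here, because CPM over these wide ranges are skewed and the genes move together. The share of all genes past the ratio was not computed, so the flags are a description. Tumour 4 stood out in 4 of them, with 168 CPM of Isg15, 463 CPM of Ifit1, 494 CPM of Ifi27l2a and 464 CPM of Rtp4. Tumour 5 stood out in the other 6, with 129 CPM of Stat2, 75.6 CPM of Rsad2, 43.8 CPM of Cmpk2, 77.0 CPM of Oas3, 81.3 CPM of Oasl1 and 217 CPM of Gbp2. Each gene can be flagged only in its highest tumour, so the flags cannot show that different genes set tumours 4 and 5 apart. Both tumours had 32 of the 36 genes above every epithelium library.

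The level in tumour 4 over that in tumour 5 was 22 for Ifi27l2a, 5.09 for Isg15, 4.90 for Rtp4 and 4.44 for Ifit1, against 0.411 for Oas3, 0.353 for Cmpk2 and 0.132 for Oasl1. Ifi27l2a and Isg15 have exons of 463 and 756 bases in all. Over the 36 genes this ratio had a Spearman rho of -0.36 with exonic length, against -0.20 over 12504 genes with at least 5 CPM. The 375 of those genes with exons under 1000 bases had a median log2 ratio of 2.05, and the 3 of the 36 genes under that length had 2.35. Tumour 4 is also the library with 52.0% of alignments not unique. The part of gene length and library quality in these single high values was not tested gene by gene.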

How the results depend on the processing

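Of 452 recomputed values 413 kept their direction and side of the threshold or, for counts, lay within 1.5 times the count reported. Interferon-stimulated genes called higher numbered 0 with edgeR, 3 with DESeq2 and 0 to 1 when 1 library was left out, and those called lower 1, 2 with limma-voom (Irf1 and Iigp1) and 1 in each fit without a library. Upstream genes called higher numbered 0, 1 with DESeq2 and 0 to 2 without a library. Those called lower numbered 10, 15 with DESeq2, 13 with limma-voom and 4 to 12 without a library. Second-list genes called higher numbered 2, 4 with DESeq2 and 1 to 2 without a library. Those called lower numbered 13, 15 with DESeq2, 16 with limma-voom and 5 to 15 without a library. Over all genes, edgeR, DESeq2 and limma-voom called 8.89%, 13.1% and 8.04% higher and 11.4%, 12.4% and 15.7% lower. The median pairwise rho of the 36 genes was 0.833 to 0.881 when each tumour was left out and libraries rescaled, and 0.786 without tumours 4 and 5, an alternative chosen after seeing the data. The median log2 fold change of the 36 genes was 0.04 with limma-voom (all genes -0.024) and 0.45 to 1.03 without a library. Relations between single genes past the adjusted threshold numbered 4 of all 11, 5 under relative log expression or upper quartile scaling, and 4 to 6 without a tumour. Signs of log2 fold changes turned under at least 1 alternative in 9 of the 36 genes: Ifih1, Usp18, Ifit2, Cmpk2, Xaf1 and Mx2, and 3 of the 16 whose fold changes are printed. Irf9 was at -0.043 with upper quartile scaling, -0.32 with limma-voom and -0.31 to 0.18 without a library. Ddx58 was at -0.023, -0.22 and -0.084 to 0.20 under the same settings. Ifi27l2a was at -0.66 with DESeq2, which replaced the count of tumour 4, -0.55 with limma-voom and -0.68 to 1.65 without a library. Beyond that replacement and the smaller number of libraries, the cause was not tested. Over all genes tested the median was 0.17, and 0.07 under upper quartile scaling. No paired analysis was possible because the groups share a single replicate number. Depth limits the interferon ligands, most of which lie near or under 3 counts. Ifng in epithelium lay above that level, at 0.346, 1.01 and 0.405 CPM.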

Other observations

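A gene of the MHC class I region, H2-T10, followed the order of tumours, as B2m did. H2-T10 had 27.3, 31.9 and 18.1 CPM in tumours 4, 5 and 27 and 2.52 to 9.19 CPM in the other 6, against 16.5 to 17.7 CPM in epithelium. Apol9a and Apol9b, apolipoprotein L genes, had 128 and 100.4 CPM in tumour 4, 193 and 81.8 CPM in tumour 5 and 1.57 and 0.768 CPM in tumour 24, against at most 2.87 and 2.33 CPM in epithelium. They are near-identical neighbours, so their counts may be split. At the opposite end, Pms2, a DNA mismatch repair gene, had its lowest levels, 11.7, 14.4 and 16.8 CPM, in tumours 4, 5 and 27 and 21.7 to 31.6 CPM in the other 6, against 16.1 to 21.4 CPM in epithelium. Its r with the score was -0.98 over 9 tumours, the most negative of 12489 genes. All of these genes were picked by that ranking, so no test is attached to them.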
